A study of Danio rerio with 13 samples.

Results

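Cytokine signaling genes outside the interferon arm were examined in cryoinjured ventricles of zebrafish mutant for vegfc and vegfd and of control zebrafish. The genes are the 33 zebrafish genes that the study listed under the Reactome set for cytokine signaling in the immune system and that it did not also list under interferon signaling or peptide chain elongation. They are 33 of 82 zebrafish genes under that cytokine heading, were listed against 37 human orthologs, and are 33 of the 32520 genes in the count table. The rule takes membership alone, but the study drew up its list on these samples, so the list is not independent evidence of a direction.

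The 6 mutants were vegfc(hy-/-);vegfd(-/-) fish, in which a hypomorphic vegfc allele (vegfc hu5055) was combined with a vegfd null allele (vegfd uq9bh), and the 7 controls were vegfc(+/+):vegfd(+/+) fish. Both groups were adult when the ventricle was frozen with a cold probe (cryoinjury) and were sampled 180 days later, and the study's lines also carried a lyve1b:DsRed reporter of lymphatic vessels. Each sample was 12 sections of 8 µm from the 4% PFA-fixed ventricle of 1 heart, and ribosomal RNA was depleted before sequencing. The vegfc allele keeps part of its function, and the labels do not say which mutant hearts had regenerated, so the mutants are treated as 1 group. Samples are named by group and replicate number, and no control carries the number 2.

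Cytokines are secreted proteins that bind receptors on the cell surface. Class I receptors, such as those for prolactin, growth hormone and the interleukin-6 family, have no enzymatic activity and pass the signal through bound JAK kinases to STAT transcription factors, while adaptor proteins branch it to RAS and MAP kinases and to PI3-kinase. The interleukin-1 receptor uses a separate route, in which MyD88 recruits IRAK kinases, Pellino ubiquitin ligases modify them, and the TAK1 complex activates the IKK kinases that release NF-kB. In the injured heart these pathways are known for leukocyte recruitment, cell survival and growth. Most of the 33 genes are shared intracellular parts of these routes, used by many cell types and by growth factor receptors too, and only 5 of them are ligands or receptors.

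Of the 26 genes that reached a mean of 10 counts per sample and were tested, none differed between mutants and controls after adjustment over all genes in edgeR, the main test, which called 0.0978% of all tested genes. At an unadjusted p under 0.05 it gave 4 (15.4%), against 15.2% of all tested genes, and each of the 4 was lower in mutants. Among them were pik3r1, a regulatory subunit of PI3-kinase, rapgef1b, an exchange factor for RAP1, and hgfa, hepatocyte growth factor. rapgef1b and hgfa had 1 or 2 counts over all 6 mutants, and pik3r1 had 10. All of these named genes reached the mean of 10 counts only through the controls, where they had 216, 226 and 442 counts. Of the pik3r1 counts, 430 came from control 6 alone. At the other end, irs2b, peli1a and sos1 were counted in 5, 5 and 6 mutants and in 2, 2 and 3 controls. With over 3 counts they were found in 3, 4 and 5 mutants and in 1, 2 and 3 controls. None of these had an unadjusted p under 0.05 in edgeR. The share of all tested genes with such a pattern was not taken.

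These libraries were dominated by a single transcript. The gene rn7sl1 (ENSDARG00000087732), the RNA of the signal recognition particle, held between 94.7% and 96.4% of counts in mutants, against 60.8% to 91.5% in controls, with no overlap between the groups. Mutant libraries held 3575023 to 12972634 counts and control libraries 2123784 to 4291363 counts. Outside rn7sl1, mutants kept 171218 to 596616 counts, and controls kept 256802 to 1070324. Control 8 stood apart with the lowest rn7sl1 share and the most counts outside it. At the median, a tested gene was counted in 6 of 13 samples, with 46.5% of its counts coming from a single one. vegfc had 32 counts, all in control 1, and vegfd had 0 counts in every sample, so neither gene can check the genotype labels at this depth.

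Heart muscle markers were present, and 9 of 16 listed cardiomyocyte markers were matched to the table, all with counts. Their summed level, as CPM (counts per 1000000 counts of the TMM-scaled library), was 32.4 to 399.6 CPM in mutants (median 232) and 39.8 to 109 CPM in controls (median 63.0). All 6 cardiomyocyte markers tested had a higher fitted level in mutants, as had 44.0% of all tested genes. actc1a, cardiac actin, had an unadjusted p of 0.0381 in edgeR (adjusted p = 0.284). The other markers tested had log2 fold changes of 0.18 to 1.46, within their error, and adjusted p-values of 0.9998 in edgeR. Of them, nppa was counted in 2 mutants and 5 controls. The matched markers myl4 and nppb had 1 count each, both in controls. Of 11 matched leukocyte markers, lyz and mmp9 were at 0 in every sample, and the sum was 15.7 to 100 CPM in mutants and 0.528 to 62.8 CPM in controls. The 2 leukocyte markers with an unadjusted p under 0.05 were both higher in mutants, against a background of 15.2% of all tested genes (5.9% higher). The macrophage receptor gene marco had 187 counts in mutants, 104 and 83 of them in mutants 5 and 6, and 0 in controls. The MHC class II invariant chain gene cd74b had 142 in mutants, 96 and 46 of them in mutants 3 and 6, and 1 in controls. Both reached the filter only through these mutants, and the remaining mutants were at 0. The other 3 tested, ptprc, lck and csf1ra, had log2 fold changes of -0.76, -0.16 and 1.503 with adjusted p-values of 0.9998 in edgeR. Of those below the filter, lcp1 had 4 counts in mutants and 122 in controls, coro1a 0 in mutants and 12 in controls, cd74a 108 in mutants and 14 in controls, and cd4-1 83 in mutants and 0 in controls. The 3 matched red cell genes summed to 0.0 to 31.9 CPM in mutants and 0.0 to 3.17 CPM in controls. Only the hemoglobin gene hbaa1 was tested among them. It had 36, 132 and 168 counts in mutants 1, 2 and 3, and 0 in the other mutants and in every control. hbaa1 was higher in mutants at the same unadjusted threshold in edgeR, but not after adjustment over all genes. It reached the filter only through mutants 1, 2 and 3. The 4 endothelial markers summed to 0.228 to 28.2 CPM in mutants and 0.0 to 18.1 CPM in controls, and the 5 of fibroblasts and epicardium to 12.1 to 80.6 CPM in mutants and 16.999 to 69.4 CPM in controls, with tcf21 at 0 throughout. The part of these cell types in the differences described here was not tested, and in such bulk samples fewer cells of a type and less RNA per cell cannot be told apart.

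The 33 genes were counted sparsely. Of their 429 values (33 genes in 13 samples), 234 were 0, which is 54.5%. Among the 26 tested genes 50.6% of values were 0, against 54.6% for all tested genes. The rest were mostly well above 0: 48 values were 1 to 3 counts, 9 were 4 to 9 and 138 were 10 or more. A gene thus tended to be either absent from a library or present with many counts, the median value above 0 being 33. The same held for all tested genes, with a median above 0 of 43. Of values above 0, 73.1% were 10 or more in the 26 tested genes of the list, against 73.6% in all tested genes. The number of samples with a count ranged from 3 to 11, with a median of 6. The gene counted most widely was peli2, in 11 samples, and no gene was counted in all 13. In 14 of the 33 genes, over 50% of all counts came from 1 sample. At the median, the top sample held 42.3% of a gene's counts in the 26 tested genes, against 46.5% in all tested genes. Reads carried no molecular identifiers, so counts are not independent molecules and the intervals given below cover counting error only.

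**Figure D1:**
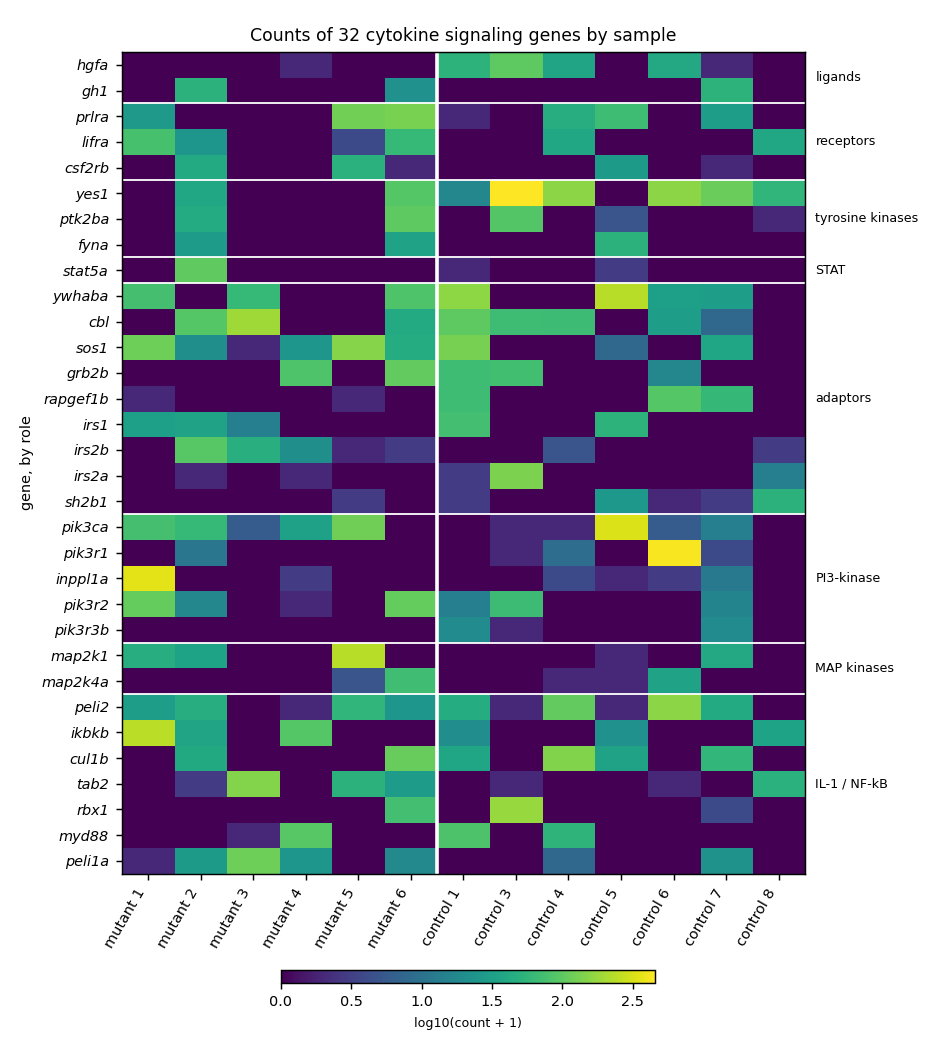
Counts of 32 of the 33 genes in the 6 mutant (left) and 7 control (right) samples, coloured by log10(count + 1), with genes in rows ordered by role. Most cells are 0, and bright cells are spread singly over both groups: of all 33 genes, 17 had their highest count in a mutant and 16 in a control.

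The 33 genes together took 4887 counts in mutants and 5617 in controls. With rn7sl1 left out of the library size, they took 2041 ± 384 CPM in mutants and 2075 ± 1098 CPM in controls (SD, n = 6 and 7), a difference within the spread between samples. Control 6 was highest at 3871, of which pik3r1 alone gave 430 of 994 counts, and control 8 was lowest at 229. Between 9 and 21 of the 33 genes had a count in a mutant (median 12.5) and between 9 and 21 in a control (median 15). Mutants 2 and 6 with 21 and 20 genes, and control 7 with 21, were the fullest, and mutant 3 and control 8 with 9 each were the emptiest. Over all tested genes, the share with a count was 62.2% in mutant 2, 56.7% in mutant 6 and 28.3% in mutant 3, against 53.3% in control 7 and 33.3% in control 8. Controls 1 and 4 reached 53.6% and 55.7%, above control 7, with 18 and 15 genes of the list.

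**Figure D2:**
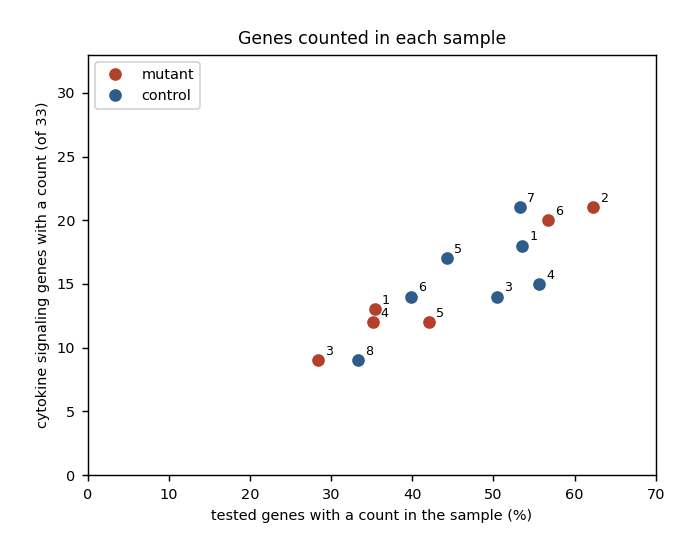
Number of the 33 genes with at least 1 count in each sample, against the percentage of all tested genes with a count in that sample, for mutants and controls with their replicate numbers. Mutant 3 and control 8 lie lowest with 9 genes each and mutant 2 and control 7 highest with 21 each, while control 4 has 15 genes at 55.7% of tested genes.

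hgfa, hepatocyte growth factor, which binds the receptor tyrosine kinase Met, had 1 count in mutant 4 and none in the other mutants, against 52, 99, 35, 39 and 1 counts in controls 1, 3, 4, 6 and 7 and none in controls 5 and 8. The groups overlapped only at 0 and 1 counts, and 4 controls lay well above every mutant. Its pooled rate in controls was 217 times that in mutants (95% exact counting interval 38.58 to 8615). The fitted log2 fold change of hgfa was -6.56 (SE 3.14; edgeR, p = 0.0365, adjusted p = 0.279; exact permutation test, p = 0.0373). Its size depends on the prior count, since the mutants had 1 count in all. DESeq2 gave hgfa an adjusted p of 0.0374, and over 26 alternatives the adjusted p ranged from 0.0374 to 1.0. The unadjusted edgeR p went above 0.05, to at most 0.0604, without any one of mutants 1, 2, 3, 5 and 6. met, its receptor, was counted in 5 of 6 mutants (317 counts) and 2 of 7 controls (101 counts), with a log2 fold change of 2.18 (SE 2.17; edgeR, adjusted p = 0.948); it was singled out after its values were seen.

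gh1, growth hormone, is made in the pituitary, and its 123 counts lay in mutants 2 and 6 (50 and 21) and control 7 (52). It did not reach the mean of 10 counts. Of 3 matched pituitary markers, prl and smtlb were at 0 in every sample and smtla had 40 counts, all in control 1.

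The receptor genes prlra and lifra were both fitted higher in mutants, within their error. prlra, a prolactin receptor, had 26, 122 and 134 counts in mutants 1, 5 and 6 and none in the others, against 1, 45, 68 and 29 counts in controls 1, 4, 5 and 7 and none in the others. The highest 2 values were mutants and the groups otherwise overlapped (log2 fold change 0.84, SE 2.10; edgeR, adjusted p = 0.9998). lifra, a receptor of the leukemia inhibitory factor type that the study listed against human IL2RG, IL3RA and IL6R, had 163 counts over 4 mutants and 76 counts over 2 controls. csf2rb, listed against human IL2RB and named for the common beta chain of the interleukin-3 receptor family, had 91 counts in 3 mutants and 28 in 2 controls and was below the filter.

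Of the 3 non-receptor tyrosine kinases, yes1, a SRC family kinase, was counted in more controls than mutants. It had 38 and 89 counts in mutants 2 and 6 and none in the other mutants, against 16, 457, 156, 156, 112 and 55 counts in controls 1, 3, 4, 6, 7 and 8 and none in control 5. In CPM it averaged 3.58 ± 5.72 in mutants and 24.3 ± 21.3 in controls (SD, n = 6 and 7), with 5 controls above every mutant. The fitted log2 fold change of yes1 was -2.75 (SE 1.86; edgeR, adjusted p = 0.631). An exact two-sided permutation test over all 1716 arrangements of the group labels, on log2(CPM + 1), gave p = 0.0402 for yes1 and an adjusted p of 0.947 over all genes. It was lower in mutants under each of 28 alternatives, with log2 fold changes from -6.76 to -2.31. fyna, a second SRC family kinase, had 28 and 33 counts in the same mutants 2 and 6 and 50 in control 5, and ptk2ba, the focal adhesion kinase relative PYK2, had 42 and 99 in mutants 2 and 6, against 88, 4 and 1 in controls 3, 5 and 8.

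stat5a, the only STAT transcription factor of the list, had 101 counts in mutant 2 and 0 in every other mutant, against 1 and 2 counts in controls 1 and 5. At 8.0 counts per sample on average it was not tested.

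The adaptors, docking proteins and exchange factors divided evenly, with 4 of 8 tested genes fitted higher in mutants and 4 lower. rapgef1b, an exchange factor that loads RAP1 with GTP, had 1 count each in mutants 1 and 5, against 67, 91 and 58 in controls 1, 6 and 7 and none in the other 4. Controls 1, 6 and 7 thus held all 216 control counts, and the other 4 controls were at 0, as were 4 of the mutants. The pooled rate of rapgef1b in controls was 104 times that in mutants (95% exact counting interval 28.4 to 862), with a log2 fold change of -6.56 (SE 2.99; edgeR, p = 0.0279, adjusted p = 0.238). Without control 1, 6 or 7 its unadjusted p was 0.0502 to 0.0616, and the exact permutation p was 0.192.

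Among the 3 insulin receptor substrates, docking proteins that recruit PI3-kinase, irs2b had 92, 47, 20, 1 and 2 counts in mutants 2 to 6 and none in mutant 1, against 4 and 2 counts in controls 4 and 8 and none in the other 5. The highest control lay below 3 mutants, and the lower 3 mutants overlapped with the controls. Its level was 5.53 ± 7.97 CPM in mutants and 0.164 ± 0.281 CPM in controls (SD, n = 6 and 7), with a log2 fold change of 4.89 (SE 2.85; edgeR, adjusted p = 0.459); the exact permutation p of irs2b was 0.0484, with an adjusted p of 0.947. Its paralog irs2a had 1 count in each of mutants 2 and 4, against 2, 137 and 13 in controls 1, 3 and 8. The pooled rate of irs2a in controls was 73.0 times that in mutants (95% exact counting interval 19.9 to 608), but 137 of its 152 control counts came from control 3. irs1 had 77 counts over mutants 1, 2 and 3 and 123 over controls 1 and 5. No test of the difference between paralogs was run.

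sos1, the exchange factor that activates RAS, was the only gene of the list counted in all 6 mutants, with 118, 20, 1, 24, 148 and 43 counts in mutants 1 to 6, against 130, 7 and 37 in controls 1, 5 and 7 and none in the other 4. The ranges overlapped and the mean level was 9.55 ± 8.79 CPM in mutants and 5.08 ± 9.39 CPM in controls (SD, n = 6 and 7; log2 fold change 0.91, SE 1.93; edgeR, adjusted p = 0.9998). grb2b, the adaptor that brings SOS proteins to receptors, had 189 counts in mutants 4 and 6 and 153 in controls 1, 3 and 6. cbl, a ubiquitin ligase for activated tyrosine kinases, had 322 counts in 3 mutants and 270 in 5 controls (log2 fold change 0.49, SE 1.87), and ywhaba, a 14-3-3 protein, had 218 counts in 3 mutants and 454 in 4 controls (-1.18, SE 1.86). Both lay within their error and had adjusted p-values of 0.9998 in edgeR. sh2b1, an adaptor of JAK2, had 2 counts in mutant 5, against 2, 25, 1, 2 and 50 in controls 1, 5, 6, 7 and 8. Its pooled rate in controls was 38.4 times that in mutants (95% exact counting interval 10.3 to 323), and it was not tested, with a mean of 6.31 counts per sample.

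**Figure D3:**
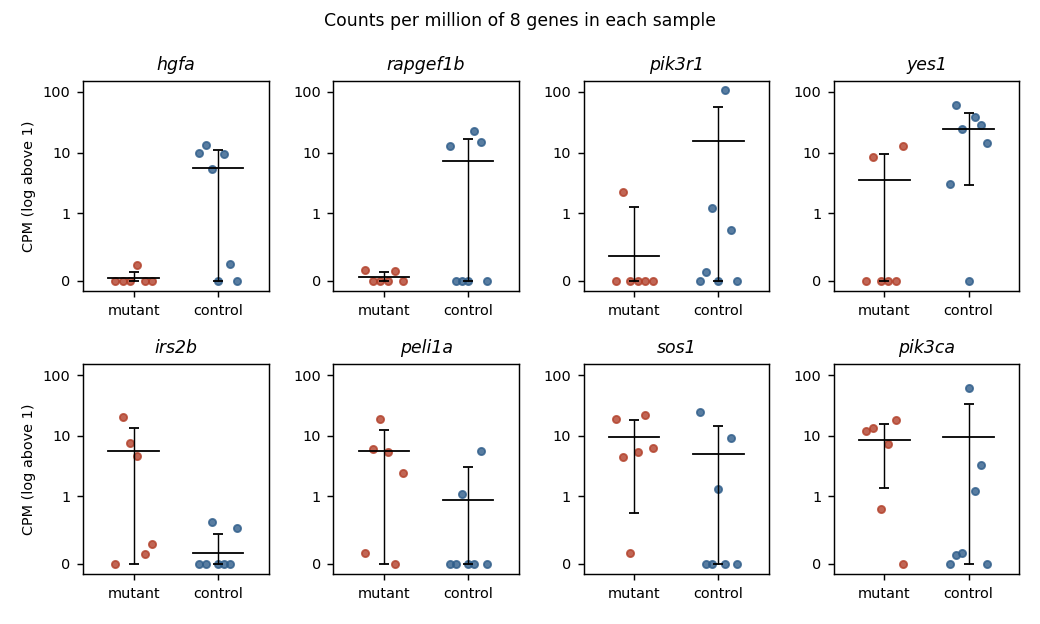
Level of 8 genes in each sample in CPM, on an axis that is linear up to 1 CPM and logarithmic above it; points are samples, horizontal lines are group means and bars are 1 SD, drawn down to 0 at most. hgfa and rapgef1b stay below 1 CPM in every mutant, yes1 is at 0 in 4 of 6 mutants and 1 of 7 controls, irs2b, peli1a and sos1 are counted in 5 or 6 mutants and 2 or 3 controls, and pik3ca is highest in 1 control.

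Within the PI3-kinase arm, the catalytic subunit gene pik3ca was the most widely counted, in 10 samples. It had 75, 60, 5, 32 and 119 counts in mutants 1 to 5 and none in mutant 6, against 1, 1, 330, 5 and 13 in controls 3 to 7 and none in controls 1 and 8. Mutants 1, 2, 4 and 5 lay above 6 of the 7 controls, and control 5 lay above every mutant. The fitted log2 fold change was -0.16 (SE 1.84; edgeR, adjusted p = 0.9998), well within its error, and without control 5 it was 3.38. The sign of pik3ca was reversed under 7 of 28 alternatives, so its direction was not settled.

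Among the regulatory subunits, pik3r1 had 10 counts in mutant 2 and none in the others, against 1, 8, 430 and 3 in controls 3, 4, 6 and 7. The log2 fold change of pik3r1 was -5.32 (SE 2.29; edgeR, p = 0.0205, adjusted p = 0.190; exact permutation test, p = 0.502). It rested on control 6, without which 10 counts in mutants and 12 in controls remained, below the filter. DESeq2, which by default replaces outlying counts in a group of 7 or more, put pik3r1 at 0.087 on the log2 scale. pik3r2 had 107, 16, 1 and 106 counts in mutants 1, 2, 4 and 6, against 13, 65 and 15 in controls 1, 3 and 7 (log2 fold change 1.48, SE 2.34; edgeR, adjusted p = 0.9998). pik3r3b was the only gene of the list at 0 in every mutant, against 18, 1 and 18 counts in controls 1, 3 and 7. It was at least 2.17-fold lower in mutants, taking 3 counts per library as the floor, and was below the filter. inppl1a, the lipid phosphatase SHIP2, had 351 counts in mutant 1 and 2 in mutant 4, against 11 counts or fewer in 4 controls, so 1 library held 94.9% of its counts.

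Of the MAP kinase route, map2k1, the kinase MEK1, had 44, 34 and 236 counts in mutants 1, 2 and 5, against 1 and 39 in controls 5 and 7. Its fitted log2 fold change was 2.53 (SE 2.29; edgeR, adjusted p = 0.899), and 236 of its 354 counts came from mutant 5. map2k4a, the kinase MKK4 of the JNK route, had 73 counts in 2 mutants, 69 of them in mutant 6, and 35 in 3 controls.

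The interleukin-1 and NF-kB arm was tested in full, with 4 of 7 genes fitted higher in mutants and 3 lower. peli1a, a Pellino ubiquitin ligase, had 1, 27, 117, 24 and 17 counts in mutants 1, 2, 3, 4 and 6 and none in mutant 5, against 7 and 22 in controls 4 and 7 and none in the other 5. In CPM, mutants 2 and 3 lay above every control, mutant 4 (5.47 CPM) lay just below control 7 (5.56 CPM), and the mean was 5.54 ± 7.11 CPM in mutants and 0.949 ± 2.07 CPM in controls (SD, n = 6 and 7; log2 fold change 2.52, SE 2.56; edgeR, adjusted p = 0.958). peli2, its relative and the most widely counted gene of the list, had 29, 44, 1, 56 and 24 counts in mutants 1, 2, 4, 5 and 6, against 43, 1, 104, 1, 158 and 41 in controls 1 and 3 to 7. Its log2 fold change of -1.25 (SE 1.95; edgeR, adjusted p = 0.9998) lay within its error.

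tab2, an adaptor of the TAK1 kinase, had 2, 146, 50 and 28 counts in mutants 2, 3, 5 and 6, against 1, 1 and 49 in controls 3, 6 and 8 (log2 fold change 1.65, SE 2.38; edgeR, adjusted p = 0.9998). All but 2 of its control counts came from control 8, the library with the lowest rn7sl1 share, and without it the fitted value was 6.13, with an unadjusted p of 0.0515. ikbkb, the kinase IKK beta, had 368 counts in mutants 1, 2 and 4, of which 244 were in mutant 1, and 74 counts in controls 1, 5 and 8. myd88, the adaptor at the head of this route, had 1 and 93 counts in mutants 3 and 4, against 81 and 53 in controls 1 and 4. cul1b and rbx1, parts of a cullin ubiquitin ligase that marks the NF-kB inhibitor for degradation, were fitted lower in mutants within their error: cul1b had 149 counts in 2 mutants and 271 in 4 controls, and rbx1 had 72 in mutant 6, against 176 and 3 in controls 3 and 7.

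In the fit across all 6138 tested genes, 4 of the 26 genes (15.4%) had an unadjusted p under 0.05, against a background of 15.2% of all tested genes, so the share of the list was close to the background. All 4 were lower in mutants, where the background was 9.3% lower and 5.9% higher. With rn7sl1 removed from the table, edgeR gave 4 genes again, beside 382 higher and 563 lower among all 6137 genes tested. Among the 4 were pik3r1, rapgef1b and hgfa, with unadjusted p-values of 0.0225 for pik3r1, 0.0343 for rapgef1b and 0.0391 for hgfa. Over the fits that left out each sample in turn, edgeR gave 2 to 4 genes of the list, and 4 without control 8. In those fits 315 to 473 of all tested genes were higher and 430 to 851 lower. The background of each single fit was not set beside its number. By adjusted p none of the 26 passed edgeR's quasi-likelihood test against a background of 0.0978%, or 6 genes. By adjusted p the likelihood ratio test called none (background 0.0163%), voom none (background 0.0815%) and the exact permutation test none (background 0.0%), while DESeq2 called 2, one of them hgfa, against its background of 2.46%. The exact permutation test gave 4 genes of the list an unadjusted p under 0.05 (3 lower, hgfa and yes1 among them, and irs2b higher), which is 15.4% against a background of 3.89%, or 1.97% lower and 1.92% higher. Of these, hgfa reached the filter only through the controls and irs2b only through the mutants. Of the 26 genes, 46.2% had a count in at least 7 samples, against 37.8% of all tested genes, a difference that was not tested.

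By fitted value, 14 of the 26 genes were higher in mutants and 12 lower. That is 53.8% higher, against 44.0% of all tested genes. The median log2 fold change was 0.28 for the list and -0.30 for all tested genes. No test of this gap was run, and the SE of a single gene ran from 1.84 to 3.14. The 6 genes with at most 3 counts in every mutant included hgfa, rapgef1b, irs2a, sh2b1 and pik3r3b, and the 1 gene with at most 3 in every control was stat5a. The share of all tested genes with so few counts was not taken, so these numbers are not read as a trait of the list. Of the 33 genes, tested or not, 19 were counted in a larger share of controls and 14 in a larger share of mutants. Of all tested genes, 53.7% were counted in a larger share of controls and 44.3% in a larger share of mutants. With upper-quartile scaling in place of TMM, 6 genes of the list had an unadjusted p under 0.05 (background 21.5%), of which 3 were higher (background 12.3%) and 3 lower (background 9.27%). Over all tested genes that scaling put 753 higher and 569 lower, against 362 higher and 571 lower with TMM.

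**Figure D4:**
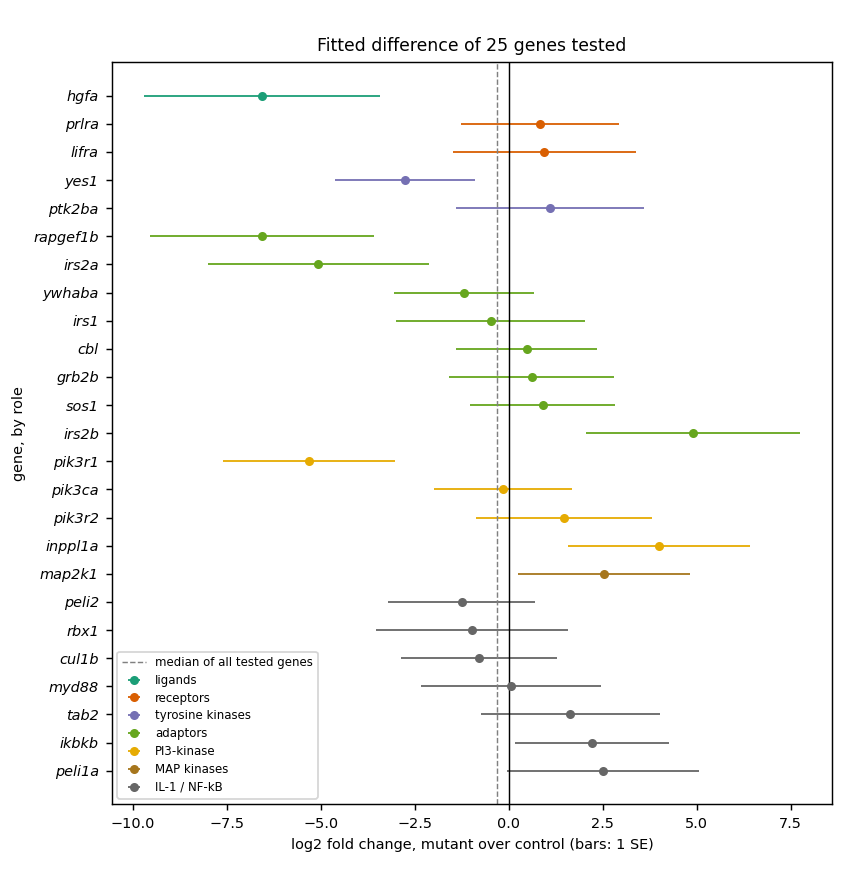
Fitted log2 fold change (mutant over control) of 25 of the 26 tested genes, in rows ordered and coloured by role, with bars of 1 SE; the solid line is 0 and the dashed line the median of all tested genes (-0.30). hgfa, rapgef1b and pik3r1 lie between -6.56 and -5.32, and the size of values resting on 1 or 2 counts in mutants depends on the prior count.

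Of 47 further cytokine and chemokine genes, 44 were matched to the table, 27 had any count and 7 were tested. Of the 7 tested, 4 had a higher fitted level in mutants, and the median log2 fold change was 0.35. The 2 with an unadjusted p under 0.05 were lower in mutants (background 9.3% lower): il15, an interleukin for lymphocytes, had 0 counts in mutants and 172 in controls, 171 of them in control 3, and was at least 6.20-fold lower. tgfb1a, transforming growth factor beta, had 1 count in mutant 2, against 40, 135, 55 and 21 in controls 1, 3, 4 and 7, so that its pooled rate in controls was 241 times that in mutants (95% exact counting interval 42.9 to 9563; edgeR, p = 0.0344, adjusted p = 0.270). Both il15 and tgfb1a reached the filter only through the controls, which largely set the direction of these calls. The bound of il15 was on the group mean and rested on control 3. The classical inflammatory cytokines, singled out after their values were seen, were counted in few samples. il1b had 1 count in mutants and 9 in controls, and tnfa had 0 in mutants and 39 in controls. il6 had 48 in mutant 2 and 0 in controls, and il12ba had 97 in 3 mutants and 0 in controls. il10, ifng1 and cxcl8a were at 0 in all 13 samples. A count of 0 allows a level of up to 0.438 to 0.683 CPM in a mutant and 0.402 to 0.792 CPM in a control (3 counts per library).

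None of the 9 tested genes among 34 matched cytokine receptors, and none of the 4 tested among 26 matched genes between the interleukin-1 receptor and NF-kB, had an unadjusted p under 0.05 in edgeR. Of 10 tested JAK, STAT and SOCS genes, 1 did, higher in mutants, against a background of 15.2% of all tested genes (5.9% higher). This was stat4, a STAT of lymphocytes and other leukocytes. It had 3, 423 and 47 counts in mutants 1, 2 and 6, against 7 in control 1 (log2 fold change 6.30, SE 2.29; edgeR, adjusted p = 0.103). stat4 reached the mean of 10 counts only through the mutants. Mutant 2, with most of the stat4 counts, also held the stat5a counts, and had the most genes with a count of all 13 libraries (7398). Of 16 tested RAS, MAPK and PI3-kinase partners, 3 did, against a background of 15.2% of all tested genes (9.3% lower). All 3 were lower in mutants, with 0 counts in each of the 6: hrasa, a RAS GTPase, was at least 10.1-fold lower (153 counts in controls 6 and 7), raf1b, a RAF kinase, at least 7.92-fold lower (145 counts in controls 4 and 7), and inppl1b, the paralog of inppl1a, at least 6.14-fold lower (148 counts, all in control 4). The controls not named were at 0 too, so these bounds are on group means and do not cover the spread between controls. All 3 reached the mean of 10 counts only through the controls named. Of the other 49 genes of the Reactome cytokine list 40 were tested, and 6 of these reached an unadjusted p under 0.05 in edgeR, 3 of them higher in mutants and 3 lower (background 15.2%), with none past the adjusted threshold.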

How the data were processed

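Per the labels and the study's methods, the authors trimmed paired reads with Skewer, aligned them with BWA 0.7.17 to GRCz11 and counted them per Ensembl gene, using strand, with featureCounts 1.5.0. The deposited values are raw counts for 32520 genes, of which 12925 had 0 counts in every sample; they are not adjusted for gene length, and no pair of samples held identical values. Tools, versions and the build come from the submitters' processing notes.

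The 6138 genes averaging 10 counts or more per sample were compared between 6 mutants and 7 controls with edgeR 4.0.16 in R 4.3.3: TMM scaling, quasi-likelihood test, a prior count of 0.125, condition as the only factor, and Benjamini-Hochberg adjustment across the 6138 genes. SE is the absolute log2 fold change over the square root of F. Each sample is 1 heart, and numbers shared between groups are different animals. A fold against a group at 0 is a bound at 3 counts per library, and against 1 to 3 counts a pooled rate ratio with a 95% exact interval. Neither covers the spread between samples, and a bound on the group mean can rest on 1 library. Rates use TMM-scaled library sizes.

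Alternatives were RLE, TMMwsp, upper-quartile and no scaling; a fit without rn7sl1; a filter by detection in at least 7 samples, filterByExpr, or none; the robust fit, the likelihood ratio test, DESeq2 1.42.0, voom with sample weights (limma 3.58.1) and exact permutation tests on log2(CPM + 1); a prior count of 2; a replicate block; and leaving out each sample. Fold change, SE and adjusted p are given for tested genes with an unadjusted p under 0.05, a count in at least 7 samples, or a place among the 5 with the most counts. They are also given for map2k1, added for its role, and for met, singled out after its values were seen. Genes of other lists are named where the unadjusted p was under 0.05 or where said. The other 49 genes of the Reactome cytokine list are only counted, not named. A bound or rate ratio can stand in place of the fit. The 33 genes and the other lists were chosen with earlier results of these data known. Where the count table gave no symbol, names come from a table pairing Ensembl identifiers with symbols, some only by the human-style spelling. The authors' own fold changes and p-values were not used, no sequences are shown, and 1 gene of the list is counted in the totals but not reported here.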

Additional observations from a re-analysis of the deposited data

Results flagged for a closer look

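A sample was singled out where its gap to the nearest sample of its group divided by the whole range of that group, exceeded Dixon's 95% critical value. Of 34 groups examined (14 named genes and 3 library measures in mutants and in controls), 12 gave such a sample, and chance alone would give about 1 in 20. With most values at 0, 1 library with counts is enough to reach the criterion, so these samples show where a gene's counts lay.

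Among mutants, mutant 3 stood apart for tab2 with 23.8 CPM (gap 0.683 of the range) and for peli1a with 19.1 CPM (0.684), and mutant 2 for irs2b with 20.5 CPM (0.627) and for pik3r1 with 2.23 CPM (1.0). Mutant 4 stood apart for hgfa with a gap of 1.0 from a single count.

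Among controls, control 5 stood apart for pik3ca with 62.0 CPM (gap 0.947), and control 6 for pik3r1 with 105.9 CPM (0.988) and for peli2 with 38.9 CPM (0.586). Control 8 stood apart for tab2 with 12.9 CPM (0.981), control 7 for peli1a with 5.56 CPM (0.805) and control 1 for sos1 with 24.9 CPM (0.625). Control 8 also held the lowest share of counts on rn7sl1, 60.8% (gap 0.876).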

How the results depend on the processing

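Under every alternative but DESeq2, none of the 33 genes passed by adjusted p; DESeq2 called 2, one of them hgfa, with a log2 fold change of -7.32. Genes of all kinds past the adjusted threshold numbered 6, against 87 with upper-quartile scaling, 14 unscaled, 2 with no filter, 2 with filterByExpr, 1 with the likelihood ratio test, 3 with the robust fit, 151 with DESeq2 and 0 with the exact permutation test. At an unadjusted p under 0.05, 362 genes were higher and 571 lower in mutants, against 753 higher with upper-quartile scaling, 2561 and 4277 with no filter, 16 and 21 with filterByExpr, 53 and 59 with a count in at least 7 samples, 126 and 365 with voom, and 118 and 121 with the exact permutation test. Genes of the list at that threshold numbered 4 of 26, against 6 with upper-quartile scaling, 6 unscaled and 5 of 33 with no filter. With filterByExpr they numbered 0 of 8, beside 16 higher and 21 lower among all 1402 genes tested. With a count in at least 7 samples they numbered 2 of 12, beside 53 higher and 59 lower among 2468. Unscaled, 270 genes were higher and 836 lower among 6138, and with no filter 2561 and 4277 among 19595. Over all tested genes the median log2 difference was -0.30. Scaling shifted it to 0.39 (upper-quartile) and -1.50 (unscaled), and with no filter, over other genes, it was -0.77. The median of the list was 0.28, against 1.17 with upper-quartile scaling, -0.67 unscaled, -0.60 with filterByExpr and 0.83 with a count in at least 7 samples. It lay above the all-gene median under upper-quartile and no scaling and below it with filterByExpr (-0.60 for the list, -0.27 for all genes tested). Genes of the list fitted higher numbered 14 of 26, against 7 of 26 unscaled and 18 of 33 with no filter. They numbered 3 of 8 with filterByExpr and 7 of 12 with a count in at least 7 samples.

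Fitted values changed sign: ywhaba to 2.45 and pik3ca to 0.89 with upper-quartile scaling; cbl to -0.70, prlra to -0.34 and sos1 to -0.14 unscaled; cbl to -1.15 and pik3ca to 2.25 with voom; cbl to -0.21 and pik3ca to 1.24 in the exact permutation test; and pik3r1, at -5.32 in the main test, to 0.087 with DESeq2. The cause was not tested.

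Leaving out each sample gave 2 to 7 genes past the adjusted threshold, 315 to 473 higher and 430 to 851 lower unadjusted, 0 genes of the list adjusted and 2 to 4 unadjusted, 13 to 16 of the list fitted higher, and medians of -0.11 to 0.67 for the list and -0.52 to -0.11 for all genes. cbl ranged from -0.38 (without mutant 3) to 1.17, and pik3ca from -0.51 to 3.38, being 0.10 without mutant 3, 0.12 without mutant 6 and 3.38 without control 5.

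Numbers shared by mutants and controls belong to different animals. Over numbers 1, 3, 4, 5 and 6 the deviations of same-numbered samples correlated at -0.024 to 0.088, and 1 of 5 correlated best with its own number. With most values at 0, such correlations cannot tell whether same-numbered samples were processed together. With the replicate block, 1 gene passed by adjusted p, 28 were higher and 81 lower unadjusted, 1 gene of the list (yes1) passed unadjusted, the medians were -0.46 for the list and -0.71 for all genes, and cbl and pik3ca were fitted at -2.62 and 2.05. Sparse counts limit every result: 21 of the 33 genes were counted in under 7 of 13 samples.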
